A study of Arabidopsis thaliana and Arabidopsis lyrata subsp. lyrata and Arabidopsis halleri subsp. gemmifera with 10 samples.

Results

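Transcripts whose signal in both interspecific Arabidopsis hybrids lay above every array of all 3 species are described here. A probe set, the array's measuring unit for a transcript, was taken when each of the 4 hybrid arrays had a signal of 200 or more and at least 1.3 times the highest of the 6 species arrays, once the trimmed mean of each array had been set to 500. Of 22746 probe sets that are not controls, 96 met these thresholds (0.422%). The chloroplast gene ndhI was left out, because organelle genes were excluded. No gene was lost to the excluded symbols (AOP, CYP, UGT, BGLU, WRKY, MYB, EXP and XTH). That check reads the symbol alone, so these families were not looked for among probe sets without a symbol. The remaining 95 probe sets are the members. Of these, 49 were matched to 1 gene, 1 to several genes and 45 to no gene named here. These counts and the sizes of the excess come from the values that chose the members, so they are a description and carry no test.

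The leaves came from 5 groups with 2 biological replicates and 1 array each. The hybrids are A. thaliana x A. halleri ssp. gemmifera and A. thaliana x A. lyrata ssp. lyrata, called below the A. halleri cross and the A. lyrata cross. The species are A. halleri ssp. gemmifera, A. lyrata ssp. lyrata and A. thaliana, accession Col. All plants grew at 22 C with 16 h of light, with no treatment named, and mature leaves were taken before flowering. Plant age, ploidy, which parent was the mother and whether a replicate was a single plant are not stated in the labels, so the spread between replicates may be partly technical.

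A hybrid of 2 species carries a genome from each, and a transcript that is expressed additively lies midway between its parents. A level above the higher parent is called transgressive, and it has been studied in plant hybrids in connection with hybrid vigour, often among genes of photosynthesis and metabolism. Probes on the array match A. thaliana sequence, so sequence differences can lower the signal of A. halleri and A. lyrata transcripts, in the hybrids as well as in the species. Every member also exceeds A. thaliana, because its arrays are among the species arrays of the rule. That holds with each array set to the same trimmed mean. The effect of probe match on the excess was not tested. In whole leaves, more RNA per cell and more cells of a type cannot be told apart.

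The arrays were deposited on unequal scales. The trimmed mean was 500 on 5 arrays (A. halleri, its cross and A. thaliana replicate 1), and between 24.3 and 136 on the other 5 arrays (A. lyrata, its cross and A. thaliana replicate 2). After rescaling, the signal of 18 spike-in probe sets relative to A. thaliana was 1.2-fold in the A. halleri cross, 1.79-fold in the A. lyrata cross, 2.49-fold in A. halleri and 3.64-fold in A. lyrata. An excess is measured against the average signal of each array, and each gene described in full below also has its ratio with spike-in scaling, called the spike-in ratio. Of 13 listed mesophyll and photosynthesis markers, 3 were measured (RCA, SBPASE and PRK), and their group means lay between 7033 and 69926. The measured markers of roots, PYK10 and EXPA7, had group means of at most 176. No listed flower or senescence marker had a named probe set.

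The excess over the species was mostly modest in size. The ratio of the lowest hybrid array to the highest species array had a median of 1.45 over the 95 members and reached 4.1, and with spike-in scaling the median was 0.995. It was 2 or more in 5 members, 1.5 or more in 32 and under 1.5 in 63. Against A. thaliana alone, the lowest hybrid array was at least 1.3 times the highest A. thaliana array, with a median of 1.58. By group means, members in the A. halleri cross were at a median of 2.48 times the mid-parent level, the mean of the 2 parents, and members in the A. lyrata cross at 2.7 times. The hybrid mean exceeded the sum of its parents' means in 74 members in the A. halleri cross and in 86 in the A. lyrata cross, and in 70 in both.

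The members' mean hybrid signal ran from 252 to 45768, with a median of 2476. Signals of different probe sets depend on their probes and are not set against each other here. The highest species mean was that of A. thaliana in 48 members, of A. lyrata in 25 and of A. halleri in 22. Over the 8737 probe sets with all 4 hybrid arrays at 200 or more, A. thaliana held the highest species mean in 39.5%. On those 8737, 3.66% had every hybrid array above every species array with no minimum ratio, and over all probe sets this share was 1.54%. The mirror image, with every hybrid array at or under the lowest species array divided by 1.3 and all species arrays at 200 or more, was met by 15 probe sets (0.0659%).

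Only 9 of the 49 members with 1 gene have a symbol in the gene table used here, and 7 of these 9 are known as chloroplast proteins encoded in the nucleus. They serve the Calvin cycle, the photosystems, the thylakoid membrane, chloroplast division, protein folding in the chloroplast and riboflavin synthesis. A symbol is held by 18.4% of these members and by 11.5% of all probe sets with 1 gene, so the named part covers few members and says nothing of the function of the others. The roles given are background knowledge and were attached after the members were known. The share of chloroplast proteins among all genes with a symbol was not counted, so 7 of 9 is not read as an excess.

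**Figure D1:**
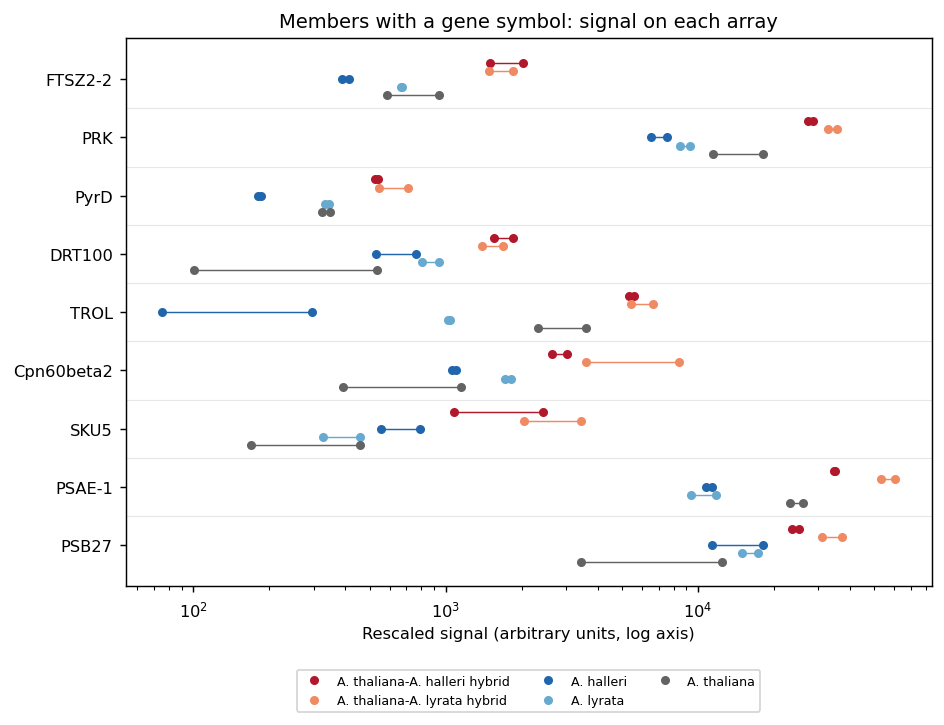
Rescaled signal (arbitrary units, log axis) of the 9 members with a gene symbol, ordered by the ratio of lowest hybrid to highest species array. Each point is 1 array, a line joins the 2 replicates of a group, and every hybrid point lies right of every species point of the same gene, from 1.59 times in FTSZ2-2 to 1.31 times in PSB27.

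Among the symbols, 3 belong to proteins of the photosystems and the thylakoid. PSAE-1 (AT4G28750) encodes subunit E of photosystem I, on the stromal side where ferredoxin docks. It was at 34623 and 35047 in the A. halleri cross and at 60258 and 53144 in the A. lyrata cross. The species arrays were at 11406 and 10758 in A. halleri, 9399 and 11794 in A. lyrata, and 26014 and 23075 in A. thaliana. The lowest hybrid array was 1.33 times the highest species array, that of A. thaliana, and A. halleri and A. lyrata lay well below both. PSAE-1 no longer met the thresholds with quantile normalization (ratio 0.837), median scaling (1.11) or spike-in scaling (1.09).

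PSB27 (AT1G03600), a lumenal protein of photosystem II assembly and repair, had a narrower margin. Its signal was 25053 and 23595 in the A. halleri cross and 37338 and 31011 in the A. lyrata cross. The species arrays read 18074 and 11384 in A. halleri, 17350 and 14884 in A. lyrata, and 12484 and 3434 in A. thaliana. Here the 2 A. thaliana arrays differed strongly, and A. halleri replicate 1 was the highest species array. On the spike-in scale the ratio was 1.56, against 1.31 here.

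TROL (AT4G01050), the thylakoid rhodanese-like protein that tethers ferredoxin-NADP reductase, had its lowest signal in A. halleri. Its signal was 5590 and 5315 in the A. halleri cross and 6646 and 5424 in the A. lyrata cross. It was 296 and 75.4 in A. halleri, 1037 and 1025 in A. lyrata, and 3603 and 2334 in A. thaliana. The hybrids overlapped each other and stood above A. thaliana, the highest species. The A. halleri cross was at 3.46 times its mid-parent level and the A. lyrata cross at 3.02 times. With spike-in scaling its ratio was 0.944, so the lowest hybrid array was below the highest species array.

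PRK (AT1G32060), the phosphoribulokinase that regenerates the CO2 acceptor of the Calvin cycle, was at 27300 and 28680 in the A. halleri cross and at 35488 and 32881 in the A. lyrata cross. It was at 7562 and 6505 in A. halleri, 9288 and 8497 in A. lyrata, and 18067 and 11461 in A. thaliana. The A. lyrata cross lay above the A. halleri cross, and both above A. thaliana. The hybrids were at 2.57 times the mid-parent level in the A. halleri cross and 2.89 times in the A. lyrata cross. The ratio of 1.51 dropped below the threshold both with quantile normalization and with spike-in scaling, to 1.14 in each.

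FTSZ2-2 (AT3G52750), a tubulin-like protein of the ring that divides chloroplasts, had 2027 and 1496 in the A. halleri cross and 1855 and 1489 in the A. lyrata cross. Its species arrays had 387 and 413 in A. halleri, 666 and 675 in A. lyrata, and 939 and 584 in A. thaliana. The 2 hybrids overlapped each other and stood above all species on this scale. The spike-in ratio was 0.995, against 1.59 here, so on that scale the lowest hybrid array lay just below the highest species array.

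Cpn60beta2 (AT3G13470), a beta subunit of the chaperonin that folds proteins in the chloroplast, had uneven replicates in the A. lyrata cross and in A. thaliana. It had 2646 and 3037 in the A. halleri cross and 8410 and 3598 in the A. lyrata cross. Its species arrays had 1099 and 1064 in A. halleri, 1822 and 1724 in A. lyrata, and 1155 and 392 in A. thaliana. A. lyrata was the highest of the species here, and the spike-in ratio was 1.95.

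PyrD (AT4G20960), a pyrimidine deaminase of riboflavin synthesis, had an A. halleri signal below those of the other species. Its signal was 527 and 538 in the A. halleri cross and 712 and 547 in the A. lyrata cross. It was 181 and 186 in A. halleri, 334 and 346 in A. lyrata, and 323 and 349 in A. thaliana. A. lyrata and A. thaliana overlapped, with A. halleri below them. The spike-in ratio was 0.765, so the lowest hybrid array then lay below the highest species array.

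The other 2 symbols belong to genes outside the chloroplast set. DRT100 (AT3G12610), named for DNA damage repair and toleration, had 1558 and 1843 in the A. halleri cross and 1691 and 1399 in the A. lyrata cross. It had 531 and 761 in A. halleri, 810 and 945 in A. lyrata, and 537 and 100 in A. thaliana. SKU5 (AT4G12420), a membrane-anchored glycoprotein of directional root growth, was at 7.77 times mid-parent in the A. lyrata cross, the highest such value of the 9. Its arrays were at 1076 and 2440 in the A. halleri cross, 3437 and 2051 in the A. lyrata cross, 556 and 792 in A. halleri, 326 and 459 in A. lyrata, and 458 and 169 in A. thaliana. In both genes the replicates of A. thaliana lay far apart, with replicate 2 the lower. The spike-in ratio was 1.64 for DRT100 and 2.28 for SKU5.

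Other genes that share a family, a complex or, as DRT101 does with DRT100, only a symbol stem with a named member were looked up for comparison. These 13 relatives, picked by symbol from genes that are not members once the members were known, include photosystem and antenna proteins, chaperonin 60 beta subunits, FTSZ2-1, DRT101 and 3 SKU5-similar genes. In 2 of the 13, both antenna genes, every hybrid array exceeded every species array, where 1.54% of all probe sets did. With the genes picked this way, nothing is read from that count. LHCB4.1, a light-harvesting protein of photosystem II, fell just short with a ratio of 1.27, and LHCB4.3 had a ratio of 1.01. PSAN, another photosystem I subunit, averaged 31640 in the A. halleri cross, 35214 in the A. lyrata cross, 58888 in A. halleri, 100622 in A. lyrata and 16003 in A. thaliana, so its hybrids lay between their parents. FTSZ2-1 averaged 1354 in the A. halleri cross and 1599 in the A. lyrata cross, against 2755 in A. halleri, 1396 in A. lyrata and 1196 in A. thaliana. Of the 11 relatives that passed the filter on low signals, limma called 0 above both parents in either cross at adjusted p under 0.05, where the background over all probe sets was 0.342% in the A. halleri cross and 0.743% in the A. lyrata cross. In both crosses together 0.0899% of all probe sets were so called.

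Among the genes of other listed leaf pathways that had a named probe set, PRK was the only member. The remaining listed genes could not be looked up, and 45 members have no gene named here. RCA, the Rubisco activase, averaged 45548 in the A. halleri cross, 64520 in the A. lyrata cross, 31023 in A. halleri, 69926 in A. lyrata and 28991 in A. thaliana. SBPASE, a phosphatase of the Calvin cycle, averaged 26143 in the A. halleri cross, 26864 in the A. lyrata cross, 31772 in A. halleri, 12818 in A. lyrata and 12669 in A. thaliana. CHLM, a methyltransferase of chlorophyll synthesis, came closest of the others, with a lowest hybrid array at 0.952 times the highest species array. The measured genes of the clock (1 of 12 listed), chlorophyll synthesis (3 of 15), starch metabolism (4 of 15), heat shock (3 of 14), cold and drought response (4 of 11), flavonoid and anthocyanin synthesis (4 of 10), salicylic acid defence (1 of 8), oxidative stress (1 of 10) and nitrogen and sulfur assimilation (1 of 10) included no member, nor did the single measured markers of guard cells, vascular tissue and trichomes. No listed gene of jasmonate response or DNA methylation had a named probe set. Since 0.418% of all probe sets are members, nothing is read from lists with so few measured genes. In the lists, only PRK and APS3, a sulfur assimilation gene, were called above both parents in the A. lyrata cross, where 0.743% of all probe sets were so called. PRK is a member, so its call rests on the arrays that chose it and is no test. No listed gene was so called in the A. halleri cross, where the share over all probe sets was 0.342%.

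The largest excess of all members was that of AT1G13650, which has no symbol. Its signal was 2559 and 3749 in the A. halleri cross and 1589 and 436 in the A. lyrata cross. It was 67.4 and 42.4 in A. halleri, 90.6 and 106 in A. lyrata, and 7.22 and 3.96 in A. thaliana. Both A. thaliana signals were under 9.24, the 10th percentile of all signals, so a fold against A. thaliana is poorly determined, but the lowest hybrid array was 4.1 times the highest A. lyrata array, and the spike-in ratio was 8.31. Replicate 2 of the A. lyrata cross was much lower than replicate 1.

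AT5G52970 followed, with 1664 and 1433 in the A. halleri cross and 2471 and 1611 in the A. lyrata cross. Its species arrays had 181 and 308 in A. halleri, 260 and 230 in A. lyrata, and 580 and 358 in A. thaliana. The lowest hybrid array was 2.47 times the highest species array, and with spike-in scaling it still met the thresholds at 1.74. AT2G29290 had 2094 and 1956 in the A. halleri cross and 2878 and 2229 in the A. lyrata cross. It had 947 and 797 in A. halleri, 182 and 264 in A. lyrata, and 1021 and 991 in A. thaliana. Here A. halleri and A. thaliana were near each other and A. lyrata was low, and the A. lyrata cross lay above the A. halleri cross. Its spike-in ratio was 1.10, below the threshold.

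AT4G01460 and AT5G14120 had less even replicates. AT4G01460 had 353 and 294 in the A. halleri cross, 369 and 292 in the A. lyrata cross, 122 and 23.6 in A. halleri, 9.71 and 6.18 in A. lyrata, and 157 and 13.1 in A. thaliana. AT5G14120 had 1589 and 3689 in the A. halleri cross, 1991 and 1382 in the A. lyrata cross, 200 and 300 in A. halleri, 787 and 504 in A. lyrata, and 585 and 602 in A. thaliana. The excess of AT5G14120 over mid-parent was 6.26 times in the A. halleri cross and 2.72 times in the A. lyrata cross. The spike-in ratio was 1.17 for AT4G01460 and 1.12 for AT5G14120, both below the threshold.

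AT2G42220 had 7750 and 7052 in the A. halleri cross, 13752 and 8822 in the A. lyrata cross, 2784 and 2594 in A. halleri, 3429 and 3320 in A. lyrata, and 4105 and 709 in A. thaliana. AT3G50685 had 11399 and 10202 in the A. halleri cross, 11374 and 9592 in the A. lyrata cross, 2859 and 2096 in A. halleri, 1519 and 1341 in A. lyrata, and 5834 and 3530 in A. thaliana. In AT3G50685 both hybrids were level with each other and A. thaliana was the highest species. The spike-in ratio was 1.35 for AT2G42220 and 1.03 for AT3G50685.

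AT4G15545 had 17003 and 17931 in the A. halleri cross, 19749 and 19742 in the A. lyrata cross, 9988 and 5261 in A. halleri, 5510 and 7506 in A. lyrata, and 9284 and 10524 in A. thaliana. AT5G42720 had 578 and 486 in the A. halleri cross, 650 and 745 in the A. lyrata cross, 205 and 257 in A. halleri, 283 and 159 in A. lyrata, and 287 and 162 in A. thaliana. AT1G04680 had 2092 and 1283 in the A. halleri cross, 1626 and 1622 in the A. lyrata cross, 470 and 488 in A. halleri, 761 and 549 in A. lyrata, and 532 and 811 in A. thaliana. In AT5G42720 the 3 species overlapped one another, in AT4G15545 A. halleri overlapped both others, and in AT1G04680 A. lyrata overlapped A. thaliana; the hybrids stood above all of them. AT5G42720 had a spike-in ratio of 1.45. That ratio was 0.916 for AT4G15545 and 0.976 for AT1G04680, where the lowest hybrid array was then below the highest species array.

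**Figure D2:**
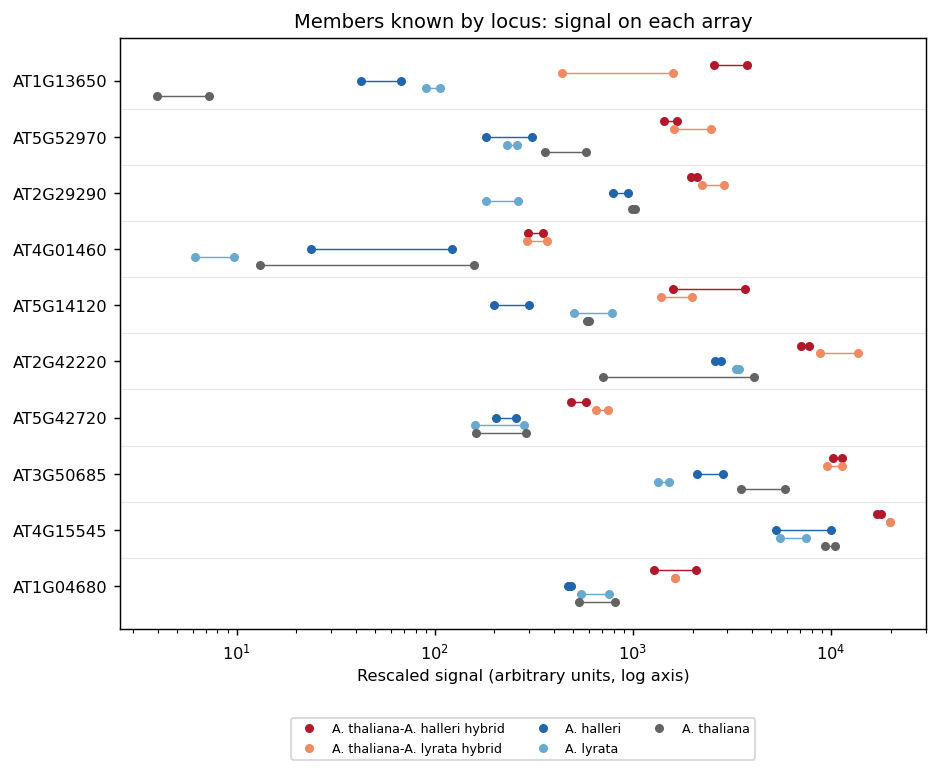
Rescaled signal (arbitrary units, log axis) of the 10 members known by locus alone with the largest ratio of lowest hybrid to highest species array. Each point is 1 array and a line joins the replicates of a group; AT1G13650 stands out, with hybrid signals from 436 to 3749 and no species array above 106.

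The other 30 members known by locus had ratios between 1.3 and 1.56, and their median excess over mid-parent was 2.2 times in the A. halleri cross and 2.43 times in the A. lyrata cross. The 45 members with no gene named here ran from 1.3 to 2.43, with medians over mid-parent of 2.39 times in the A. halleri cross and 2.8 times in the A. lyrata cross. The single probe set matched to several genes was at 418 and 457 in the A. halleri cross, 368 and 595 in the A. lyrata cross, 63.4 and 109 in A. halleri, 139 and 254 in A. lyrata, and 2 and 8.84 in A. thaliana. At the edge of the threshold, the members just inside were an unnamed probe set (ratio 1.3007), AT1G79870 (1.3017) and AT2G28540 (1.3035). The 3 just outside, all unnamed here, had ratios of 1.293, 1.2922 and 1.29.

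**Figure D3:**
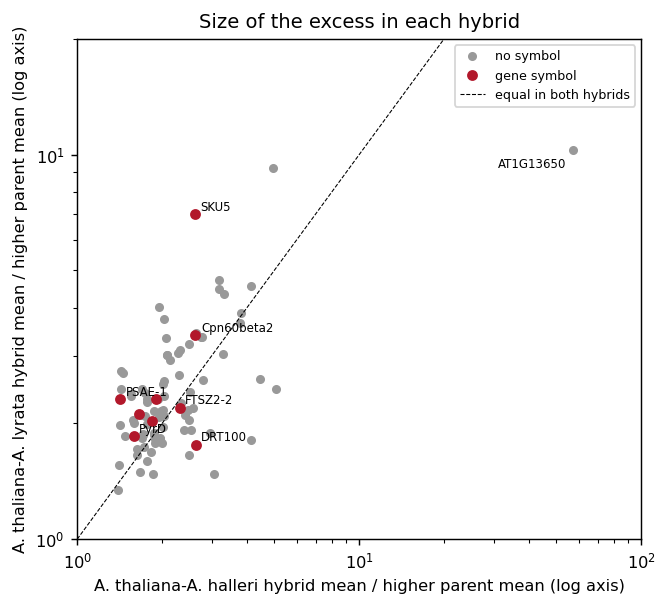
Hybrid mean divided by the mean of its higher parent for the 95 members, in the A. halleri cross (horizontal) and in the A. lyrata cross (vertical), both on log axes. Each point is 1 member, red points have a gene symbol, and most points sit below 5 in both crosses, with AT1G13650 at 57.5 and 10.3 as the farthest point.

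In their genome location the members with 1 gene were spread over all 5 nuclear chromosomes, with 14 on chromosome 1, 8 on chromosome 2, 6 on chromosome 3, 10 on chromosome 4 and 11 on chromosome 5. These are 28.6%, 16.3%, 12.2%, 20.4% and 22.4% of them, where chromosomes 1 to 5 hold 25.8%, 16.5%, 20.5%, 14.7% and 22.5% of all nuclear probe sets with 1 gene. None of these members with 1 gene was the next protein-coding gene to another of them, and no such count was made for other genes. The closest pair among them, AT2G32500 and AT2G32640, lay 13 protein-coding genes apart in the gene order of the TAIR10.1 assembly. The other members were not placed.

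The same thresholds were also applied to the arrays of each replicate number alone. On the replicate 1 arrays, 342 probe sets met them (1.5%), and on the replicate 2 arrays 496 (2.18%). 135 met them on both, which is 39.5% of the replicate 1 list and 27.2% of the replicate 2 list. Probe sets chosen on replicate 1 had a median ratio of lowest hybrid to highest species array of 1.52 on those arrays and of 1.13 on the replicate 2 arrays. Those chosen on replicate 2 had a median of 1.62 there and of 1 on the replicate 1 arrays. The ratio was thus smaller in arrays not used for the choice.

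Of single arrays left out, those of A. thaliana changed the number of probe sets most. The A. thaliana arrays differed widely in some listed genes, such as DFR (12.9 and 13384) and UF3GT (21.0 and 5444) of anthocyanin synthesis. They were closer in others, such as RCA (26882 and 31101), and the cause was not tested. Without A. thaliana replicate 1, 309 probe sets met the thresholds, and without A. thaliana replicate 2, 155 did. Leaving out any other array gave between 104 and 139. With each hybrid set against its own parents alone, 355 probe sets met the thresholds in the A. halleri cross and 419 in the A. lyrata cross.

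**Figure D4:**
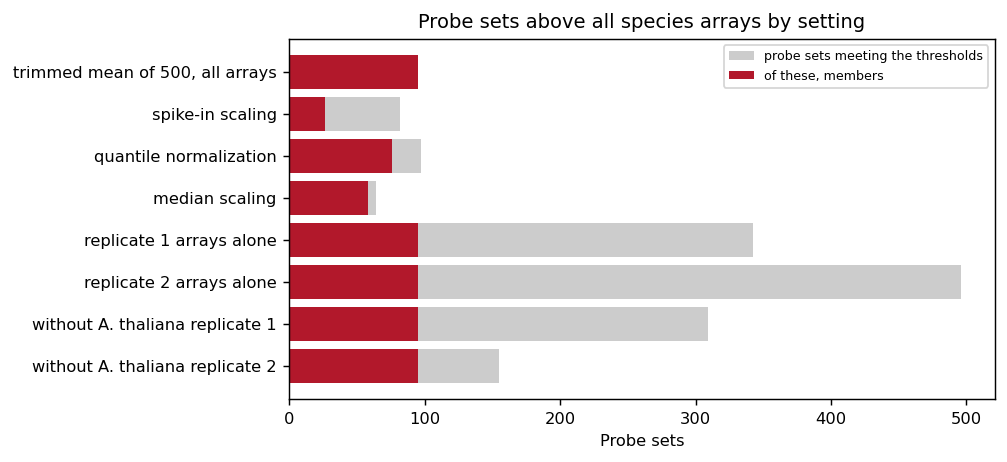
Number of probe sets that met the thresholds (grey) and how many of them are members (red), by scaling or by the arrays used. With fewer arrays all 95 members are kept and others join; with spike-in scaling 26 members are kept among 82 probe sets.

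The scale also decides which genes pass. With spike-in scaling 82 probe sets met the thresholds, of which 26 were members (27.4% of the members and 31.7% of the new list), and the median ratio of the 95 members was 0.995. On that scale the mean of the A. halleri cross was above that of A. thaliana in 95 of 95 members, with a median of 1.94 times. The rule fixed this count, since spike-in scaling lowers that cross against A. thaliana by 1.2-fold, less than the minimum ratio of 1.3. The mean of the A. lyrata cross remained above that of A. thaliana in 84, with a median of 1.37 times. Both crosses were above A. halleri or A. lyrata, their other parent, in all 95. That too was fixed, because spike-in levels were higher in these species than in their crosses. Of the 19 members named above, 8 met the thresholds with spike-in scaling, 16 with quantile normalization and 17 with median scaling. The 8 are DRT100, Cpn60beta2, SKU5, PSB27, AT1G13650, AT5G52970, AT2G42220 and AT5G42720.

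The order of the hybrids between themselves was tested with limma over 16679 probe sets. All 4 hybrid arrays had to pass a common bar, which limits how far they can differ, so the members' counts are not read against the background. In the A. halleri cross against the A. lyrata cross, 0 of 95 members were called higher or lower at adjusted p under 0.05, where 1.93% of all probe sets were higher and 0.725% lower. At an unadjusted p under 0.05 there were 5 members (5.26%), where 14.9% of all probe sets passed. The log2 differences of the members ran from -1.30 to 1.88, and the upper end was AT1G13650 (1.88 ± 0.56, SE; limma adjusted p = 0.128). Cpn60beta2 was at -0.95 ± 0.50 (limma adjusted p = 0.42). The crosses were deposited in different scale classes, the 2 sets of 5 arrays described above, which only A. thaliana has in common. With the class as a block, 10 members were called lower in the A. halleri cross and 0 higher, and with spike-in scaling 2 were called higher. Leaving out A. thaliana replicate 1 or replicate 2, 1 member was called lower. In the deviation from mid-parent on the log2 scale, A. halleri cross minus A. lyrata cross, limma called 0 of 95 members at adjusted p under 0.05, where 0.486% of all probe sets were higher and 0.27% lower. There, 11 members (11.6%) and 11.1% of all probe sets passed at an unadjusted p under 0.05. The rule chose the members on these same arrays, so nothing is read from the members' counts. The lowest limma adjusted p of a member was 0.0563.

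The order of the species beneath the hybrids was tested in the same fit. The comparisons are of signals on probes of A. thaliana sequence. How much of a species difference lies in the match to the probes was not tested. The highest species array set the bar in the rule, so the members' counts and medians describe them and nothing is read from their distance to those of all probe sets. In A. lyrata against A. thaliana, 9 members were higher and 18 lower, which is 9.47% and 18.9% of the members where 25.8% and 17.2% of all probe sets were called. The median log2 difference was -0.16 over the members and 0.31 over all probe sets. PSAE-1 was lower in A. lyrata, at 10597 ± 1694 against 24544 ± 2078 in A. thaliana (SD, n = 2 each; log2 difference -1.22 ± 0.24, limma adjusted p = 0.00374). AT1G13650 was called higher (limma adjusted p = 0.0035), but with A. thaliana near the floor its size depends on the offset, with a log2 difference of 2.87 at 9.24, 3.96 at 1 and 1.42 at 50. Among the other members with 1 gene, the largest differences were those of DRT100 (1.85 ± 0.59) and AT2G04570 (1.51 ± 0.48) upward, and of AT4G19530 (-2.84 ± 0.56), AT2G29290 (-2.15 ± 0.28) and AT3G50685 (-1.66 ± 0.30) downward. Cpn60beta2 (1.38 ± 0.50, adjusted p = 0.0473) and TROL (-1.48 ± 0.50, adjusted p = 0.0363) passed narrowly. Spike-in scaling moved the median over all probe sets to -1.57, and then 2 members were higher and 80 lower, and with median scaling 3 were higher and 31 lower. AT2G04570 (-0.31) and Cpn60beta2 (-0.46) changed sign on the spike-in scale. Against A. thaliana replicate 2 alone, within the deposited scale class of A. lyrata, 18 members were higher and 13 lower. The 27 calls dropped to 16 without A. lyrata replicate 1 and to 17 without replicate 2.

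In A. halleri against A. thaliana, 7 members were higher and 18 lower, which is 7.37% and 18.9% of the members where 23.5% and 16.2% of all probe sets were called. The median was -0.23 over the members and 0.32 over all probe sets. TROL was lowest relative to A. thaliana, at 186 ± 156 in A. halleri against 2968 ± 897 in A. thaliana (SD, n = 2 each; log2 difference -4.18 ± 0.50, limma adjusted p = 0.000375). PSAE-1 (-1.14 ± 0.24, adjusted p = 0.00565) and PRK (-1.04 ± 0.27, adjusted p = 0.0146) were lower too. FTSZ2-2 (-0.88 ± 0.30) and PyrD (-0.84 ± 0.28) passed narrowly, and AT4G19530 (-1.91 ± 0.56) and AT3G15570 (-1.85 ± 0.54) were lower. AT2G04570 was higher (1.71 ± 0.48). AT1G13650 was called higher too, with a log2 difference of 2.09 that was 3.09 at an offset of 1 and 0.91 at an offset of 50. That call was lost at the offset of 50 (limma adjusted p = 0.153), with spike-in scaling (0.0689) and with quantile normalization (0.0915). Spike-in scaling moved the median over all probe sets to -1.02, and then 1 member was higher and 66 lower, and with median scaling 5 were higher and 29 lower. Against A. thaliana replicate 1 alone, within the deposited scale class of A. halleri, 7 were higher and 21 lower. Leaving out A. halleri replicate 1 gave 16 calls in place of 25, leaving out A. halleri replicate 2 gave 11, and leaving out A. thaliana replicate 1 gave 24 higher and 13 lower. These counts share the A. thaliana arrays with those of A. lyrata.

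Calls between A. halleri and A. lyrata were fewer than those against A. thaliana, in the members and over all probe sets alike. The part of probe match in these numbers was not tested. In A. halleri against A. lyrata, 7 members were higher and 4 lower, which is 7.37% and 4.21% of the members where 8.11% and 7.36% of all probe sets were called. AT2G29290 was higher in A. halleri, at 872 ± 107 against 223 ± 58.0 in A. lyrata (SD, n = 2 each; log2 difference 1.94 ± 0.28, limma adjusted p = 0.00209). TROL was lower in A. halleri (-2.70 ± 0.50, adjusted p = 0.00703). The split was 18 higher and 1 lower with spike-in scaling, 7 and 9 with quantile normalization, and 4 and 16 when the scale class was a block. The total of 11 lay between 4 and 7 with any array of A. halleri, A. lyrata or a hybrid left out, and was 23 or 24 without A. thaliana replicate 1 or 2.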

How the data were processed

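Leaf RNA was hybridized to Affymetrix arrays as biotin-labelled cRNA made from 500 ng of total RNA, per the labels' protocols. The deposited values are intensity values, 1 linear signal per probe set, which the authors produced using GCOS and MAS5, per the submitters' processing notes, without stated versions. Detection calls were not used. Groups came from the sample titles. Each array was rescaled to a mean of 500, trimmed by 2% at each end over 22810 probe sets. The 64 control probe sets were then left out. The number of arrays limits the precision, and no depth is known.

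limma 3.58.1 in R 4.3.3 (eBayes with trend) was fitted to log2(signal + 9.24), where 9.24 is the 10th percentile of all signals, with all 10 arrays and 1 coefficient per group. Probe sets entered if a group's mean reached the 40th percentile (signal 104), which kept 16679 (73.3%). All 95 members passed, because the rule sets a minimum hybrid signal. P-values were adjusted by Benjamini-Hochberg over all probe sets tested. The fit was tested on simulated data with known changes between the hybrids: fitted sizes were close to those put in, but most changes of the smallest simulated size were not called, so a member that was not called is not shown to be equal in both hybrids.

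A platform annotation gave 13513 probe sets 1 gene, 503 several and 8730 none; of those with 1 gene, 13436 were found in a TAIR10.1 gene table, used for names and gene order. Named genes are all members with a symbol, genes of the lists, the 10 largest by locus, those at the threshold, and in each species comparison the 3 largest called with 1 gene per direction. The members, lists and tests were chosen with earlier results of these data known. No sequence was used here.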

Additional observations from a re-analysis of the deposited data

How the results depend on the processing

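The thresholds gave 0 probe sets on the values as deposited, 32 at a minimum ratio of 1.5 and 5 at a ratio of 2. They gave 342 on the replicate 1 arrays alone, 496 on the replicate 2 arrays alone, 355 for the A. halleri cross and 419 for the A. lyrata cross against their own parents, and between 104 and 309 with 1 array left out. With fewer arrays the rule can only gain probe sets. The median ratio of the members was 0.995 with spike-in scaling. Members called in either direction moved with spike-in scaling to 2 between the hybrids, 82 in A. lyrata against A. thaliana, 67 in A. halleri against A. thaliana and 19 in A. halleri against A. lyrata. With the scale class as a block they were 10 between the hybrids and 20 in A. halleri against A. lyrata, where eBayes without trend gave 6. With 1 array left out they were 0 to 1 between the hybrids, 16 to 32 in A. lyrata against A. thaliana, 11 to 37 in A. halleri against A. thaliana and 4 to 24 in A. halleri against A. lyrata. Probe sets called above both parents in both hybrids, 15 in all, were 36 with spike-in scaling, 7 with no filter on low signals, 5 without trend and 0 to 123 with 1 array left out. Of these 15, 14 are members, which the rule and the test choose on the same arrays. AT2G04570 (-0.31) and Cpn60beta2 (-0.46) reversed with spike-in scaling in A. lyrata against A. thaliana. Of 20 named species calls, 9 were kept under every alternative: those of PSAE-1 against A. thaliana in both relatives, TROL in A. halleri against both species, AT2G29290 in both its comparisons, and AT1G13650, AT3G50685 and AT4G19530 in A. lyrata against A. thaliana. The cause of these changes was not tested. Replicate numbers do not pair the arrays by the labels, and the deviations of same-numbered arrays correlated between -0.0854 and 0.178 over pairs of groups. With the replicate block the members called were 0 between the hybrids, 28 in A. lyrata against A. thaliana, 24 in A. halleri against A. thaliana and 9 in A. halleri against A. lyrata, and 15 probe sets were above both parents in both hybrids.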
